A study of Mus musculus with 12 samples.

Results

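Interferon response and antigen presentation genes were followed in C22 cells, a conditionally immortalized line of mouse lung club cells, after TGF-β1 treatment and after knockdown of Pdcd5. The group holds 41 genes chosen by symbol, from sensors of foreign RNA to the class I major histocompatibility complex (MHC). All 41 were found among the 23282 genes of the deposited tables, and 39 passed the filter on low counts. Oas2, with 0 to 9 counts per library, and Cmpk2, with 0 to 7 counts, did not. RNA was measured by QuantSeq 3′ mRNA-seq, which samples the 3′ end of each polyadenylated transcript, in 12 libraries. The 4 groups of 3 libraries were negative control cells (NC), negative control cells kept for 24 h with TGF-β1 at 20 ng/ml (NC + TGF-β1), cells with small interfering RNA against Pdcd5 (siPdcd5), and knockdown cells given the same TGF-β1 treatment (siPdcd5 + TGF-β1). Cells had differentiated and were kept without serum for 2 h before TGF-β1 was added. The agent used in the negative control is not specified. Nothing in the labels says whether the 3 libraries of a group came from separate cultures, so p-values measure the spread between these libraries, which may be technical.

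Interferons are secreted by cells that sense foreign nucleic acid. They bind receptors that signal through JAK kinases, and a complex that holds STAT2 and IRF9 binds the interferon-stimulated response element (ISRE) in front of antiviral genes. Interferon-γ induces the transcription factor IRF1 and raises the genes that cut proteins into peptides and present them on class I MHC. The C22 line has its own tie to this pathway. It comes from H-2Kb-tsA58 mice, in which a class I MHC promoter that responds to interferon-γ drives a temperature-sensitive large T antigen. Cells of all 4 groups share this transgene, had been expanded with interferon-γ at the lower temperature, and were then moved to a higher temperature without it. The interval between withdrawal of interferon-γ and harvest is not given, and the transgene itself was not measured.

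Total counts per library ranged from 12809857 to 17714828, so that 3 counts, taken as the smallest level a library can show, correspond to 0.169 to 0.234 CPM, the level used here, in which counts are scaled to a common library size. This floor covers counting error only. Pdcd5 was measured at 65.1 to 73.5 CPM in the 6 libraries without knockdown and at 20.0 to 26.3 CPM in the 6 knockdown libraries, with no overlap. The defining secretory markers of club cells were absent or nearly so. Scgb3a2 and Cyp2f2 had 0 counts and Scgb1a1 had 1 count over all 12 libraries, while the airway epithelial factor Foxa2 had 624 to 3595 counts per library. The other club cell markers examined were scarce, Nkx2-1 with 0 or 1 and Cldn10 with 0 to 2 counts per library. Foxa2 fell with TGF-β1 from 172 ± 11.1 to 50.3 ± 1.62 CPM in NC and from 203 ± 9.15 to 71.2 ± 5.09 CPM in siPdcd5 cells (SD, n = 3), and the epithelial keratins Krt8 and Krt18 rose by 1.36 and 1.05 on the log2 scale in NC and by 1.21 and 1.37 in siPdcd5 cells. The epithelial marker Epcam had 1 count over all 12 libraries, and Cdh1 had 24 to 53 counts per library. Mean Cdh1 was lower with TGF-β1, at 3.18 ± 0.83 and 2.12 ± 0.25 CPM in NC and 2.37 ± 0.48 and 2.18 ± 0.15 CPM in siPdcd5 cells. Of 5 leukocyte markers, Cd3e had 0 counts, Ptprc had 0 to 6 counts and Cd68 had 91 to 162 counts per library. Their summed level was 7.02 to 11.96 CPM, carried by Cd68, with overlapping ranges in the 4 groups. The scarce Lyz2 had 1 to 6 counts in each library without knockdown and 0 or 1 in each knockdown library, and the counts of Ptprc were 0 to 6 and 0 to 1. Fibroblast markers moved in different directions with TGF-β1. Col1a1, which makes up most of their summed level of 1838 to 6571 CPM, rose (log2 fold change 1.17 in NC and 1.22 in siPdcd5 cells), Dcn fell (−2.08 and −1.80), and Pdgfra had −0.35 and −0.51 and did not pass. The part of these markers in the results was not tested. The NC + TGF-β1 library with number 2 stood apart from the other libraries of its group for several interferon genes.

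After TGF-β1 in NC cells 29 of the 39 members tested had a positive and 10 a negative log2 fold change, beside 6311 and 6114 of all genes. In siPdcd5 cells 25 were positive and 14 negative, beside 5793 and 6632 of all genes. Few of these changes passed the test. In NC cells 5 of the 39 genes tested passed an adjusted p of 0.05, 3 higher and 2 lower, which is 12.8% of the members beside 15.3% of all 12425 genes tested (quasi-likelihood test of edgeR, p-values adjusted by Benjamini-Hochberg over all genes tested). The share of all genes called higher was 8.57% and that called lower 6.77%. The same numbers, 5 in all, 3 higher and 2 lower, were found in siPdcd5 cells, where 16.1% of all genes passed, 8.5% higher and 7.61% lower. Treated and untreated libraries did not overlap for 10 members in NC cells, 6 higher and 4 lower, beside 29.6% of all genes, 15.3% higher and 14.3% lower. In siPdcd5 cells this held for 8 members that were higher and 5 that were lower, beside 36.1% of all genes, 17.9% higher and 18.1% lower. The median log2 fold change of the 39 members was 0.16 in NC cells and 0.05 in siPdcd5 cells, and that of all genes was 0.005 and −0.03. Under quantile normalization with limma the medians of the members were 0.05 and 0.07, so their order depends on the scaling. All of these calls lay among the antiviral effectors and the negative regulator Usp18. By edgeR with all libraries no sensor of foreign RNA and no antigen presentation gene passed in either comparison, while DESeq2's Wald test called the sensor gene Oas1a (adjusted p = 0.0427) and the immunoproteasome gene Psmb9 (adjusted p = 0.0227) in siPdcd5 cells. Both comparisons rest on separate libraries. Ifit2, Ifit3, Isg15 and Ifi44 were called in both with the same direction. The share of all genes called in both was not computed, so this sharing cannot be taken as particular to the members. In these bulk samples a change in the share of cells and a change in RNA per cell cannot be told apart.

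**Figure D1:**
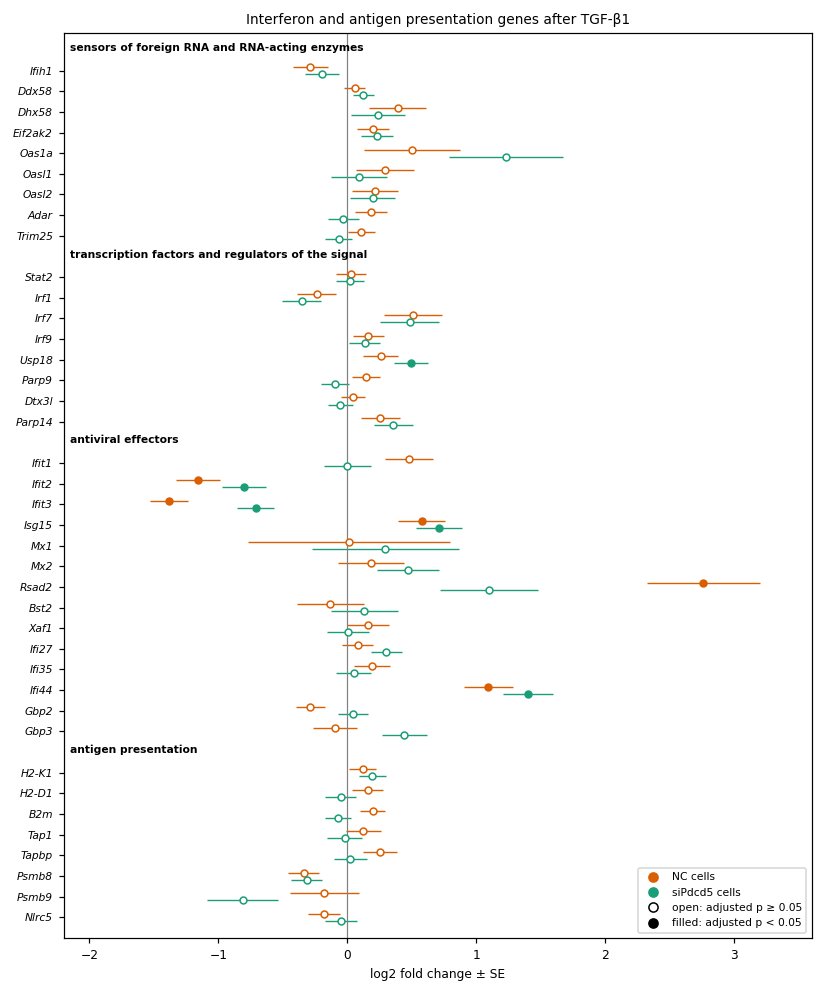
Log2 fold change after TGF-β1 (horizontal axis, bars are standard errors) of the 39 members tested, grouped by role, in NC cells (orange) and siPdcd5 cells (green). Filled points passed an adjusted p of 0.05. Ifit2 and Ifit3 lie to the left of 0 and Isg15, Ifi44 and Rsad2 to the right. Most of the 8 antigen presentation genes lie near 0. Psmb8 leans to the left in both backgrounds, and Psmb9 lies further left in siPdcd5 cells.

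Ifit3 and Ifit2, which encode tetratricopeptide proteins that act against viral RNA translation, fell after TGF-β1. Ifit3 had 35.2, 38.3 and 36.3 CPM in the 3 NC libraries and 14.9, 12.7 and 14.5 CPM in the 3 NC + TGF-β1 libraries. Every treated library was far below every NC library, and the log2 fold change was −1.38 (standard error 0.15, edgeR adjusted p = 1.1e-05), a 2.61-fold fall. In knockdown cells Ifit3 went from 30.4, 21.3 and 27.4 CPM to 16.7, 18.1 and 13.4 CPM. The groups again did not overlap, and the log2 fold change was −0.71 (standard error 0.15, edgeR adjusted p = 0.00336).

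Ifit2 had 18.7, 18.1 and 15.5 CPM in NC libraries and 7.40, 6.58 and 9.43 CPM after TGF-β1, a log2 fold change of −1.16 (standard error 0.17, edgeR adjusted p = 2.7e-04) with no overlap. In siPdcd5 cells it went from 11.7, 14.9 and 12.3 CPM to 7.58, 6.17 and 8.54 CPM (log2 fold change −0.80, standard error 0.17, edgeR adjusted p = 0.00509), again with no treated library above an untreated one. Ifit1, the third member of this family in the list, did not follow them. It had 16.1, 27.4 and 23.6 CPM in NC and 26.6, 30.8 and 36.0 CPM in NC + TGF-β1 libraries, with overlap (log2 fold change 0.48, standard error 0.18, edgeR adjusted p = 0.105). In knockdown cells its log2 fold change was 0.00 with a standard error of 0.18. On chromosome 19 of GRCm38, Ifit2 (34550694 to 34576419) and Ifit3 (34583531 to 34588731) are neighbours, and Ifit1 (34640871 to 34650009) lies further along the same strand. In the last 500 bases of the annotated Ifit3 transcripts, 9.86% of 75-base stretches also occur in the related gene Ifit3b. The authors counted unique and multiple alignments alike, so such reads cannot be assigned to 1 of these genes.

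Isg15, a ubiquitin-like modifier joined to proteins during the interferon response, was higher after TGF-β1. It had 45.8, 57.3 and 67.5 CPM in NC and 91.2, 82.6 and 80.2 CPM in NC + TGF-β1 libraries, without overlap (log2 fold change 0.57, standard error 0.18, edgeR adjusted p = 0.0461). This call was close to the threshold and was lost in 11 of 19 alternatives, in which the adjusted p ranged from 0.0150 to 0.193. Upper-quartile factors and quantile normalization were among those in which it was lost. In siPdcd5 cells Isg15 went from 42.8, 73.6 and 50.9 CPM to 103, 93.0 and 78.4 CPM (log2 fold change 0.71, standard error 0.18, edgeR adjusted p = 0.0145). The lowest treated library lay only just above the highest untreated one, and the call was lost without siPdcd5 replicate 3 and without siPdcd5 + TGF-β1 replicate 1, where adjusted p values reached 0.0741.

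Ifi44, an interferon-induced protein of the cytoplasm, rose in both backgrounds. Its levels were 7.45, 10.8 and 8.91 CPM in NC and 21.0, 20.9 and 15.9 CPM in NC + TGF-β1 libraries (log2 fold change 1.09, standard error 0.19, edgeR adjusted p = 9.99e-04). In knockdown cells they were 8.86, 6.51 and 7.92 CPM without and 23.9, 21.2 and 16.1 CPM with TGF-β1 (log2 fold change 1.40, standard error 0.19, edgeR adjusted p = 0.000125). The treated libraries were above the untreated ones in all 6 cases, and both calls held in all 19 alternatives. Rsad2, which encodes viperin, an enzyme that makes a chain-terminating nucleotide, was low throughout. It had 5, 3 and 8 counts in the NC libraries and 26, 29 and 56 counts after TGF-β1, or 0.406 ± 0.197 and 2.78 ± 1.14 CPM (SD, n = 3 libraries each). All 3 treated libraries were higher, and the log2 fold change was 2.76 (standard error 0.44, edgeR adjusted p = 4.5e-04). Untreated knockdown libraries had 12, 14 and 20 Rsad2 counts and treated ones 38, 26 and 26, which did not pass (log2 fold change 1.10, standard error 0.38, edgeR adjusted p = 0.0657), although these groups did not overlap either. This second value passed in 3 alternatives, which were DESeq2's Wald test (adjusted p = 0.0485), edgeR on only the libraries compared (adjusted p = 0.0473) and edgeR without NC + TGF-β1 replicate 3 (adjusted p = 0.0473).

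Usp18, a protease that removes ISG15 from proteins and dampens signalling at the type I interferon receptor, rose in knockdown cells. It went from 12.5, 13.8 and 11.3 CPM to 17.0, 19.4 and 16.7 CPM (log2 fold change 0.49, standard error 0.13, edgeR adjusted p = 0.0201), and every treated library was higher. The call was lost without siPdcd5 replicate 3 and without siPdcd5 + TGF-β1 replicate 2, with adjusted p values of at most 0.0935. In NC cells the levels were 10.7, 12.5 and 12.5 CPM and 14.8, 12.6 and 15.4 CPM, with a log2 fold change of 0.26 (standard error 0.14, edgeR adjusted p = 0.246). Of the other genes listed as antiviral effectors, Mx2, the tethering protein Bst2, Xaf1 and Ifi35 passed in no comparison. Mx2 is annotated as a polymorphic pseudogene in the mouse genome. Bst2 ranged from 19.7 to 44.2 CPM and Ifi35 from 48.4 to 72.4 CPM over the 12 libraries, and Xaf1 and Mx2 ranged from 6.44 to 10.02 and from 2.61 to 6.25 CPM. Whether the responses differ between the backgrounds was tested as an interaction, described after the knockdown results.

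Promoter sequences show what these genes share and where they differ. RefSeq windows of GRCm38, from 250 bases before to 50 bases after the start site, were at hand for 32 of the 41 members. The ISRE letters, taken as GAAA, any 2 bases and GAAA again, on either strand and counting overlapping matches, occurred in the windows of 13 of these 32 genes (40.6%), beside 3.99% of 27025 genes with such windows. For the interferon-γ activated site (GAS), written as TTCNNNGAA, which reads the same on both strands, the numbers were 8 of 32 (25.0%) beside 9.55%. Of the 7 members with a window that passed in any comparison, 5 held the ISRE letters, as did 8 of the 25 others. For GAS these numbers were 1 of 7 and 7 of 25. No window was at hand for Usp18 and Ifi27, which also passed. Whether motifs and calls go together was not tested. The windows of 4 genes that changed in different directions are shown here, with ISRE and GAS letters in capitals. Ifit3 fell after TGF-β1 and its window is chr19:34583279-34583578 (plus strand). Ifit2 fell too, with a GAS match and no ISRE match in the window chr19:34550444-34550743 (plus strand). Isg15 was higher, and 3 overlapping ISRE matches lie in chr4:156200769-156201068 (minus strand). Rsad2 rose in NC cells, with the window chr12:26456403-26456702 (minus strand). Matches of these letters are a description of the sequence and say nothing about binding.
Ifit3: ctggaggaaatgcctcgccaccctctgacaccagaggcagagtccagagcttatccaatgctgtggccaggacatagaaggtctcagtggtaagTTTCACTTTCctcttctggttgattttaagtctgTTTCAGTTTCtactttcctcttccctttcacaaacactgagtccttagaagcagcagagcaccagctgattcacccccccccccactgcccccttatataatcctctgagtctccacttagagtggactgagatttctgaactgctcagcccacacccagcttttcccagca
Ifit2: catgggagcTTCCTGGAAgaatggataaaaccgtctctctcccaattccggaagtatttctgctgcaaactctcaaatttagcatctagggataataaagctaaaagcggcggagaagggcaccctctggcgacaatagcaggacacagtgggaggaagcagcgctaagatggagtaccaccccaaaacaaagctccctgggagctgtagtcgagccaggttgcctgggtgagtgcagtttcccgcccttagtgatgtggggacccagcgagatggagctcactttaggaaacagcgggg
Isg15: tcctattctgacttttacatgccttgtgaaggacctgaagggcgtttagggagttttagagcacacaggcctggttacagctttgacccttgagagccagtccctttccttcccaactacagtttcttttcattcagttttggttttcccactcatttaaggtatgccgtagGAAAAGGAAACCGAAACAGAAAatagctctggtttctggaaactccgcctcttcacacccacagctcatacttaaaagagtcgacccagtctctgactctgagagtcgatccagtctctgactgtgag
Rsad2: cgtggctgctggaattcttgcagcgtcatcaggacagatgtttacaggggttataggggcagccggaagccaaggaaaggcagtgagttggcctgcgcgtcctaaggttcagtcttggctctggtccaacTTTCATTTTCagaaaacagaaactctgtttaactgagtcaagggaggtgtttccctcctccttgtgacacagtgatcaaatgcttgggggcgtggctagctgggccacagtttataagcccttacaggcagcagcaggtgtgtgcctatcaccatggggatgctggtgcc

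The ISRE letters were thus present both in a gene that fell (Ifit3) and in genes that rose (Isg15 and Rsad2). In Ifit3 the matches start 156 and 122 bases before the start site, in Isg15 they start 78, 72 and 66 bases before it, and in Rsad2 the match starts 120 bases before it. Ifit1, which did not pass, holds 2 ISRE matches, starting 104 and 85 bases before its start site. Ifi44 holds none in its window.

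**Figure D2:**
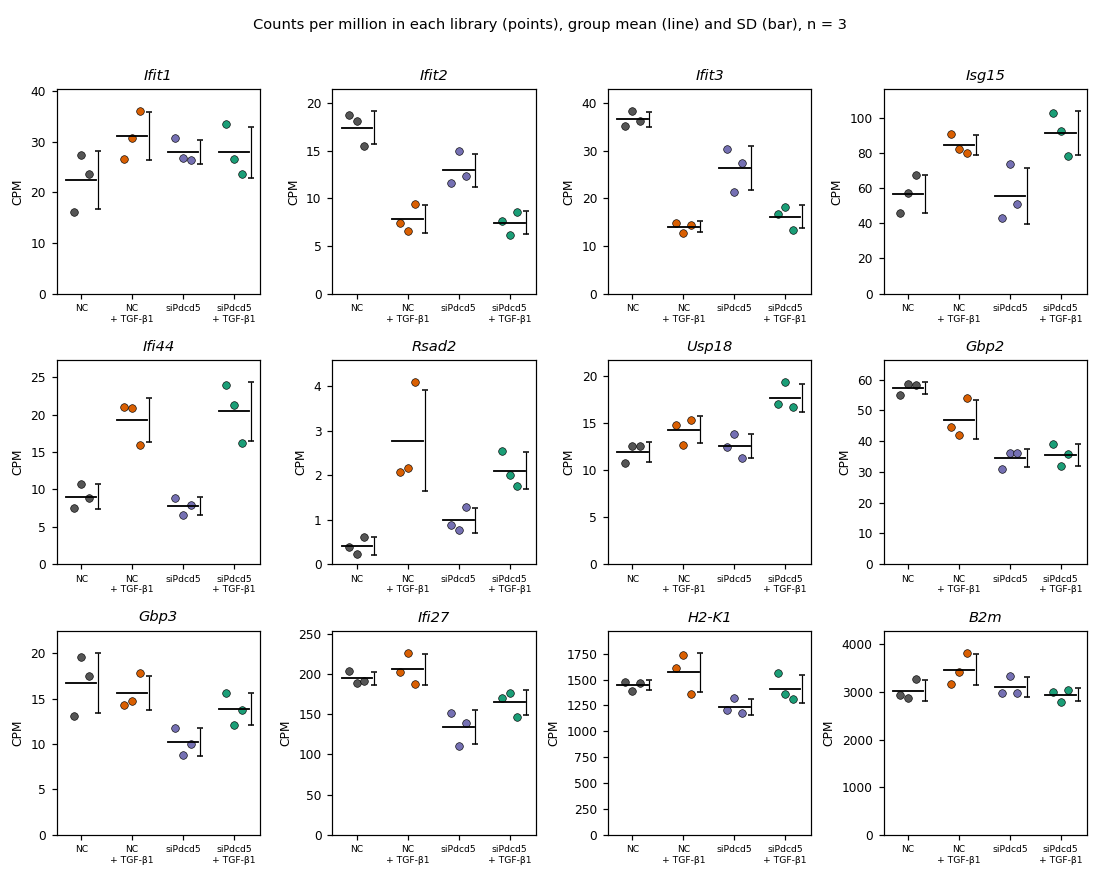
CPM of 12 members in each of the 12 libraries (points, replicates 1 to 3 from left to right), with group means (lines) and standard deviations (bars, n = 3), each axis starting at 0. Ifit2 and Ifit3 drop with TGF-β1 in both backgrounds, Isg15, Ifi44 and Rsad2 go up, and Gbp2, Gbp3 and Ifi27 are lower in siPdcd5 than in NC libraries. H2-K1 spans 1176 to 1736 CPM and B2m 2789 to 3829 CPM over the 12 libraries.

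Antigen presentation genes were expressed throughout. B2m, the invariant light chain of class I MHC, had 2789 to 3829 CPM in the 12 libraries. H2-K1, the heavy chain gene whose promoter type drives the large T transgene, had 1475, 1393 and 1470 CPM in NC and 1612, 1736 and 1361 CPM in NC + TGF-β1 libraries. These groups overlapped, and the log2 fold change was 0.12 (standard error 0.10, edgeR adjusted p = 0.522). In knockdown cells H2-K1 had 1206, 1322 and 1176 CPM without and 1561, 1361 and 1308 CPM with TGF-β1 (log2 fold change 0.19, standard error 0.10, edgeR adjusted p = 0.243). H2-D1, the other classical heavy chain, ranged from 931 to 1590 CPM, with its highest value in NC + TGF-β1 replicate 2. Reads of class I heavy chains can be shared, since 4.31% of the 75-base stretches at the ends of H2-K1 transcripts and 10.1% of those of H2-D1 also occur in other class I genes or pseudogenes.

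Tapbp (tapasin, which loads peptides onto class I MHC) had 1208 to 1914 CPM and Tap1, a subunit of the peptide transporter, 110 to 165 CPM. Their log2 fold changes after TGF-β1 lay between −0.02 and 0.25. Nlrc5, the transactivator of class I genes, had 20.3 to 28.0 CPM and changes of −0.18 and −0.05 with standard errors of 0.12. Psmb8 and Psmb9, catalytic subunits of the immunoproteasome, leaned down. Psmb8 had log2 fold changes of −0.34 and −0.32 (standard error 0.12 each, edgeR adjusted p = 0.0748 and 0.0917) in NC and siPdcd5 cells. Without NC + TGF-β1 replicate 2 the siPdcd5 value of Psmb8 passed (edgeR adjusted p = 0.0491). Its NC value passed without that library (edgeR adjusted p = 0.0307) and also without NC replicate 1 (log2 fold change −0.46, edgeR adjusted p = 0.0181). Psmb9 had 44.9, 27.9 and 29.5 CPM in siPdcd5 and 20.1, 14.4 and 23.5 CPM in siPdcd5 + TGF-β1 libraries, with no overlap, and missed the threshold (log2 fold change −0.81, standard error 0.27, edgeR adjusted p = 0.0571). It passed in 6 alternatives, among them DESeq2 (adjusted p = 0.0227), edgeR with no count filter (0.0162), edgeR on only the libraries compared (0.0203) and edgeR without NC + TGF-β1 replicate 2 (0.00307). In NC cells its treated libraries had 17.7, 40.1 and 20.5 CPM beside 28.7, 28.0 and 31.9 CPM, so that 1 library lay above and the others below all NC libraries.

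That library was NC + TGF-β1 replicate 2. Without it 11 members passed after TGF-β1 in NC cells, 6 higher and 5 lower, while 20.2% of all genes passed, and in siPdcd5 cells, which share the estimate of the spread, 10 members passed beside 21.9% of all genes. The 5 members called with all libraries were among the 11. The additional 6 were Irf1 (log2 fold change −0.42), Psmb8 (−0.40) and Psmb9 (−0.63), which were lower, and Irf7 (0.73), Parp14 (0.43) and Tapbp (0.38), which were higher. In each of these 6 genes the other treated libraries lay outside the NC range, and replicate 2 lay within it or beyond its opposite end. These genes were picked after their values were seen. Irf1, the factor of the interferon-γ response, had 176, 182 and 181 CPM in NC and 140, 189 and 127 CPM in NC + TGF-β1 libraries. In knockdown cells Irf1 had 229, 155 and 164 CPM without and 150, 139 and 140 CPM with TGF-β1 (log2 fold change −0.35, standard error 0.15, edgeR adjusted p = 0.135, or 0.0358 without NC + TGF-β1 replicate 2).

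**Figure D3:**
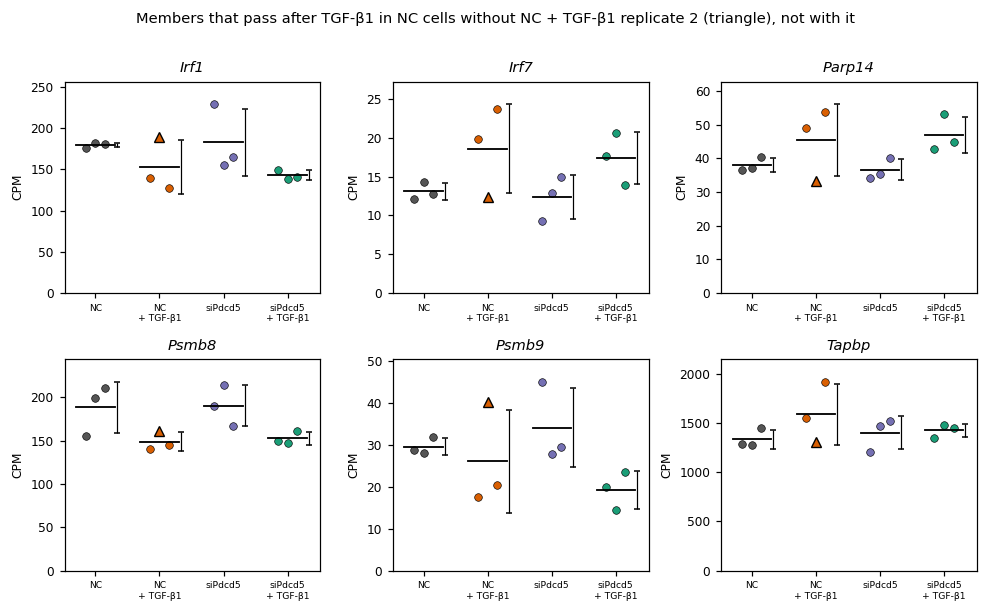
CPM of the 6 members that passed after TGF-β1 in NC cells without NC + TGF-β1 replicate 2 but not with all libraries. Points are libraries, lines group means and bars standard deviations (n = 3), and the triangle marks replicate 2, at 189 CPM for Irf1 beside 140 and 127 CPM and at 40.1 CPM for Psmb9 beside 17.7 and 20.5 CPM.

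No transcription factor or sensor passed after TGF-β1 by edgeR with all libraries, apart from the regulator Usp18 described above. Stat2, part of the complex that binds the ISRE, had 38.9 to 48.6 CPM in NC and 39.7 to 49.6 CPM in NC + TGF-β1 libraries, with log2 fold changes of 0.03 and 0.02 (standard error 0.11) in NC and siPdcd5 cells. Irf9, its DNA-binding partner, changed by 0.16 and 0.13. Irf7, which amplifies type I interferon production, had 0.51 and 0.48 with standard errors of 0.23 and did not pass (edgeR adjusted p = 0.165 and 0.176). Parp9 and Dtx3l, partners in a ubiquitin ligase complex that act on interferon signalling, had log2 fold changes between −0.09 and 0.14. Among the 9 tested sensors and RNA-acting enzymes, Ddx58 (RIG-I), Ifih1 (MDA5), Dhx58, the kinase Eif2ak2, the RNA editor Adar, Oasl1, Oasl2 and Trim25 had values between −0.29 and 0.39 in both comparisons. Oas1a, an enzyme that makes 2′,5′-oligoadenylate to activate RNase L, had 0.50 and 1.23, with standard errors of 0.38 and 0.44. In siPdcd5 cells it missed the threshold by edgeR (adjusted p = 0.0782) and passed by DESeq2 (0.0427), by limma after quantile normalization (0.0436) and by edgeR without NC + TGF-β1 replicate 2 (0.0381).

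By edgeR with all libraries 30 of the 39 tested members passed in none of the 4 comparisons, and 26 of these 30 stayed within 0.5 of 0 on the log2 scale in all 4. The exceptions were Irf7, Mx1, Oas1a and Psmb9. Knockdown of Pdcd5 without TGF-β1 lowered 3 of the 39 members and raised none, beside 3.44% of all genes called in either direction, 0.901% higher and 2.54% lower. The 3 were Gbp2, Gbp3 and Ifi27. The median log2 fold change over the members was −0.02, with 19 genes above and 20 below 0, and that of all genes was 0.02. Guanylate-binding proteins are large GTPases, induced strongly by interferon-γ, that attack the vacuoles of intracellular microbes. Gbp2 had 55.1, 58.6 and 58.3 CPM in NC and 31.1, 36.1 and 36.2 CPM in siPdcd5 libraries. All knockdown libraries were lower, with a log2 fold change of −0.73 (standard error 0.12, edgeR adjusted p = 0.00261), and this call held in all 19 alternatives.

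Gbp3, which lies near Gbp2 on chromosome 3, had 13.1, 19.7 and 17.5 CPM in NC and 11.8, 8.82 and 10.04 CPM in siPdcd5 libraries (log2 fold change −0.72, standard error 0.17, edgeR adjusted p = 0.0358). The groups did not overlap, but the lowest NC library was close to the highest knockdown library. Ifi27, a mitochondrial protein induced by type I interferon, had 203, 189 and 192 CPM in NC and 151, 110 and 139 CPM in siPdcd5 libraries (log2 fold change −0.54, standard error 0.12, edgeR adjusted p = 0.0215), again without overlap. Both calls depend on single libraries. Without NC replicate 2, NC replicate 3, siPdcd5 replicate 2 or siPdcd5 replicate 3 in turn, 1 member, Gbp2, was left, beside 1.32% to 2.57% of all genes. The call of Ifi27 was also lost without NC replicate 1 and that of Gbp3 without siPdcd5 + TGF-β1 replicate 3, and the adjusted p reached 0.0926 and 0.186. Gbp2 and Gbp3 hold ISRE letters on the same side of their start sites. The window of Gbp2 is chr3:142620413-142620712 (plus strand) and that of Gbp3 chr3:142559794-142560093 (plus strand), shown with the matches in capitals.
Gbp2: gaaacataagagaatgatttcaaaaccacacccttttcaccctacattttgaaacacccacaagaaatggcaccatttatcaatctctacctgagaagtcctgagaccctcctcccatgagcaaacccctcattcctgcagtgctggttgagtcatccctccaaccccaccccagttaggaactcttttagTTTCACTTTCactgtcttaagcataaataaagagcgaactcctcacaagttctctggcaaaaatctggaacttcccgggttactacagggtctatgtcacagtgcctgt
Gbp3: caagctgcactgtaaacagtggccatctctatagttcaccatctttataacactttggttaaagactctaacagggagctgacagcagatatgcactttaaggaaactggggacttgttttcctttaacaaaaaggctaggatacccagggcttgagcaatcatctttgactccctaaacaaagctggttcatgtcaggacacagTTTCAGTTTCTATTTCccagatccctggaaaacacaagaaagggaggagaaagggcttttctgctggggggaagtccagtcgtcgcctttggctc

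Class I genes did not pass after knockdown. H2-K1 had a log2 fold change of −0.23 (standard error 0.10, edgeR adjusted p = 0.305), with all 3 siPdcd5 libraries below the NC libraries, and B2m had 0.03. Ifit2 and Ifit3 had −0.42 and −0.47 (standard errors 0.17 and 0.14, edgeR adjusted p = 0.221 and 0.0911), and for both genes no siPdcd5 library reached the lowest NC library. Ifit3 passed by DESeq2 (adjusted p = 0.0314), by edgeR without NC + TGF-β1 replicate 2 (0.0449) and by edgeR without siPdcd5 replicate 1 (0.0483). Oas1a had 27, 25 and 27 counts in NC and 12, 5 and 13 counts in siPdcd5 libraries, without overlap (log2 fold change −1.61, standard error 0.44, edgeR adjusted p = 0.0614). It passed by DESeq2 (adjusted p = 0.0115), by edgeR with no count filter (0.0384), by limma after quantile normalization (0.0484) and by edgeR without NC + TGF-β1 replicate 2 (0.0226). Its neighbour Oas1g, no member of the group, was called in the same comparison (log2 fold change −2.10, standard error 0.31, edgeR adjusted p = 0.00199). As 46.0% of the 75-base stretches at the end of Oas1a transcripts also occur in Oas1g, reads of these genes are not independent. Over the 39 members, 3 were wholly higher and 8 wholly lower in siPdcd5 than in NC libraries, beside 10.6% and 12.5% of all genes, 23.1% in either direction.

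**Figure D4:**
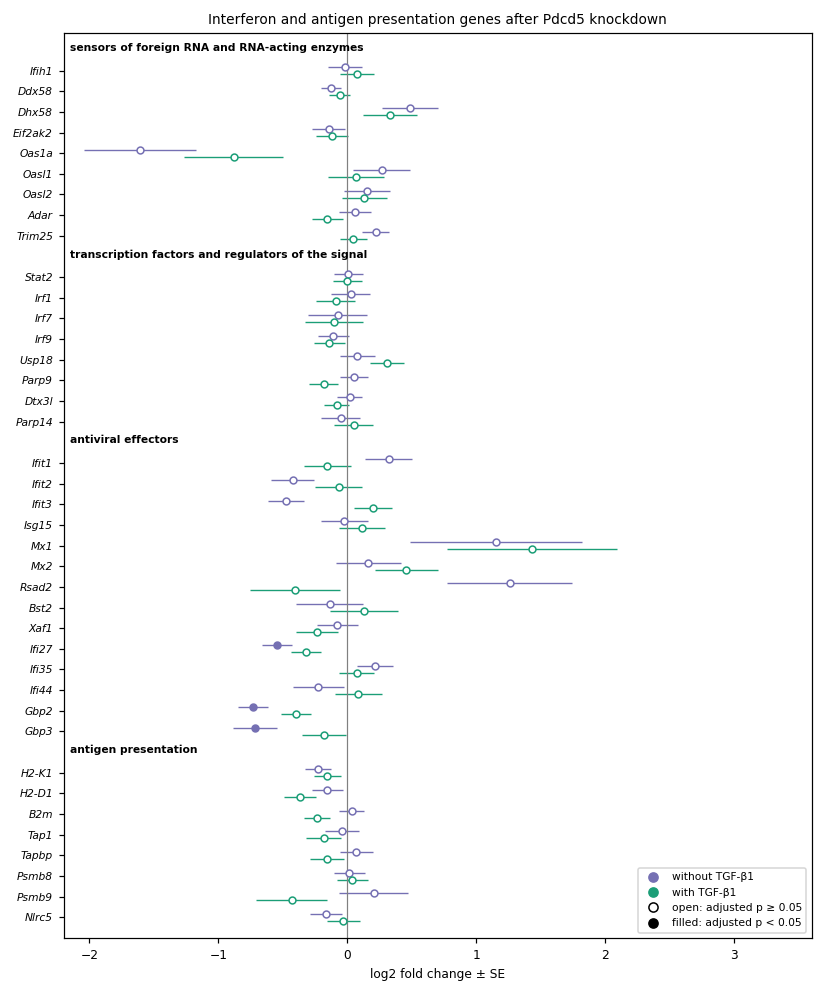
Log2 fold change after Pdcd5 knockdown (horizontal axis, bars are standard errors) of the 39 members, grouped by role, without TGF-β1 (purple) and with it (green). Filled points passed an adjusted p of 0.05, and these are Gbp2, Gbp3 and Ifi27 without TGF-β1, at −0.73, −0.72 and −0.54.

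In TGF-β1-treated cells knockdown changed 0 of the 39 members at an adjusted p of 0.05 by edgeR, beside 1.55% of all genes (0.33% higher and 1.22% lower), and 7 members had an unadjusted p under 0.05, as did 1711 of the 12425 genes. DESeq2's Wald test called 1 member, Gbp2, as did edgeR without NC + TGF-β1 replicate 2, beside 3.69% and 2.55% of all genes. Gbp2 had 44.7, 42.1 and 54.2 CPM in NC + TGF-β1 and 39.0, 31.8 and 35.9 CPM in siPdcd5 + TGF-β1 libraries, without overlap (log2 fold change −0.40, standard error 0.12, edgeR adjusted p = 0.115). The NC + TGF-β1 libraries all lay below the NC libraries, at 55.1, 58.6 and 58.3 CPM. This difference did not pass with all libraries but passed without NC + TGF-β1 replicate 3 (log2 fold change −0.40, edgeR adjusted p = 0.0349). For Gbp3 the value after knockdown with TGF-β1 was −0.18 and for Ifi27 −0.32, with standard errors of 0.17 and 0.12. H2-D1 (−0.37, standard error 0.12) and B2m (−0.24, standard error 0.10) were lower in every knockdown library than in every NC + TGF-β1 library and did not pass (edgeR adjusted p = 0.176 and 0.291). Without NC + TGF-β1 replicate 2 the value of H2-D1 was −0.20 (edgeR adjusted p = 0.308) and that of B2m −0.25 (0.229). In that fit Psmb9 had 0.02 and Psmb8 0.10. With all libraries 7 of the 8 antigen presentation genes had a negative sign, beside 24 of the 39 members and 6657 of all 12425 genes. The median of these 8 genes was −0.17, beside −0.02 for all genes. Mx1, an antiviral GTPase with 2 to 20 counts per library, had the largest positive value, 1.43, with a standard error of 0.66.

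Libraries with and without knockdown did not overlap for 2 members that were higher and 4 that were lower, beside 18.9% of all genes, 8.84% higher and 10% lower.

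The response to TGF-β1 was compared between siPdcd5 and NC cells as an interaction. By edgeR 0 of the 39 members passed an adjusted p of 0.05, as did 0 of all genes (0%). DESeq2's Wald test called 0 members, beside 15 of all 12425 genes (0.121%). At an unadjusted p under 0.05 there were 3 members, beside 5.13% of all genes. Ifit3 had an interaction of 0.67 on the log2 scale (standard error 0.21, unadjusted p = 0.0056, edgeR adjusted p = 0.820), a shallower fall in knockdown cells, from a lower starting level. Rsad2 had −1.66 (standard error 0.59, edgeR adjusted p = 0.949) and Gbp3 0.54 (standard error 0.24, edgeR adjusted p = 0.951). For Usp18 the value was 0.23 with a standard error of 0.19. A difference in response between the backgrounds was thus not shown for any member, which does not show that the responses were equal.

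Other genes of the pathway were read from 3 further lists. Counts of the 6 interferon genes examined were at or near 0. Ifnb1, Ifna4, Ifng, Ifnl2 and Ifnl3 had 0 counts in all 12 libraries, which allows up to 0.234 CPM in the shallowest library, and Ifne had 0 to 2 counts. Of 32 ligands, receptors and signalling genes, 25 were tested. After TGF-β1 in NC cells 2 were higher and 1 lower, and in siPdcd5 cells 2 were higher and 2 lower, or 12% and 16% of the list beside 15.3% and 16.1% of all genes. Ifngr1, a chain of the interferon-γ receptor, rose from 31.8 ± 2.39 to 47.8 ± 4.64 CPM in NC and from 31.1 ± 2.52 to 47.2 ± 1.84 CPM in siPdcd5 cells (SD, n = 3 libraries), with log2 fold changes of 0.59 and 0.60 (edgeR adjusted p = 0.00134 and 0.0011). Traf3, an adaptor between RNA sensors and interferon induction, rose by 0.79 and 1.01, and Socs3, an inhibitor of cytokine receptor signalling, fell by 0.93 and 1.29 on the log2 scale. Irf2, an antagonist of Irf1, fell in siPdcd5 cells (log2 fold change −0.43, edgeR adjusted p = 0.00657). In NC cells Irf2 was lower with TGF-β1 too, without overlap, at 91.2, 85.0 and 91.4 CPM untreated and 76.7, 64.1 and 83.3 CPM treated. Knockdown changed none of these 25 genes past the threshold of the edgeR test, beside 3.44% of all genes without and 1.55% with TGF-β1. In the same order 1 and 3 of them had an unadjusted p under 0.05, beside 1949 and 1711 of all 12425 genes.

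Among 22 further antigen processing genes 19 were tested. After TGF-β1 1 was higher in NC cells and 5 in siPdcd5 cells, and none was lower, beside 8.57% and 8.5% of all genes called higher. Cd74, the invariant chain of class II MHC, rose from 7.16 ± 2.42 to 22.4 ± 7.56 CPM in NC cells (log2 fold change 1.64, standard error 0.34, edgeR adjusted p = 0.00343) and from 2.96 ± 1.64 to 8.03 ± 1.06 CPM in siPdcd5 cells (1.40, standard error 0.37, edgeR adjusted p = 0.0182). In TGF-β1-treated cells 2 genes of the list were lower after knockdown, beside 1.22% of all genes called lower. Cd74 was lower in 3 of 3 libraries (log2 fold change −1.48, standard error 0.33, edgeR adjusted p = 0.0419), as was the class II gene H2-Eb1 (−1.23, standard error 0.29, edgeR adjusted p = 0.0492). Without TGF-β1 both were also lower after knockdown with no overlap, but did not pass. There Cd74 had 6.54, 5.12 and 9.83 CPM in NC and 1.25, 4.52 and 3.09 CPM in siPdcd5 libraries. H2-Eb1 had 3.04, 4.08 and 6.60 CPM and 1.92, 2.54 and 2.51 CPM. The class II genes H2-Ab1 and H2-DMa overlapped between knockdown and control libraries with TGF-β1. H2-Ab1 had 0.92 ± 0.22 CPM in siPdcd5 + TGF-β1 and 0.95 ± 0.19 CPM in NC + TGF-β1 libraries. For H2-DMa these levels were 7.02 ± 0.28 and 8.07 ± 2.81 CPM. Ciita, which controls class II genes, had 0 to 5 counts per library, as did the class II gene H2-Aa. The chaperones Calr and Canx and the peptide trimmer Erap1 rose after TGF-β1 in siPdcd5 cells, by 0.47, 0.39 and 0.55, and Calr was lower after knockdown without TGF-β1 (log2 fold change −0.42, edgeR adjusted p = 0.0333).

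Of 30 further interferon-stimulated genes 29 were in the tables and tested, and 4 were higher and 1 lower after TGF-β1 in each background, or 17.2% of the list beside 15.3% and 16.1% of all genes. Cxcl10, a chemokine known as a target of interferon-γ, had 3.12, 3.49 and 2.46 CPM in NC and 10.1, 13.7 and 9.94 CPM in NC + TGF-β1 libraries. It rose with a log2 fold change of 1.89 (standard error 0.19, edgeR adjusted p = 7.7e-06), and in siPdcd5 cells with 2.22 (standard error 0.19, edgeR adjusted p = 1.6e-06). Tor3a rose in NC cells (0.69, standard error 0.11, edgeR adjusted p = 5.3e-04). In siPdcd5 cells Tor3a had 77.8, 58.3 and 59.0 CPM untreated and 77.6, 83.8 and 80.7 CPM treated, with overlap. Samhd1, an enzyme that depletes nucleotides, fell by 0.38 in NC and 0.31 in siPdcd5 cells. Oas1g, low in untreated knockdown cells, rose there after TGF-β1 (1.43, standard error 0.33, edgeR adjusted p = 0.00745).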

How the data were processed

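Read counts per gene were deposited by the authors for each of 12 libraries, made from 500 ng of total RNA with a QuantSeq 3′ kit. The submitters' processing notes name Bowtie2, edgeR and the mm10 build, and the study's methods describe counting unique and multiple alignments. From these counts, CPM values were computed on library sizes scaled by trimmed mean of M values. One edgeR quasi-likelihood model of the 4 groups (edgeR 4.0.16, R 4.3.3, limma 3.58.1) was fitted to the 12425 genes kept by edgeR's expression filter, with p-values adjusted by Benjamini-Hochberg over all of them and a threshold of 0.05. Standard errors are the fold change divided by the root of the F statistic. There were 44 repeated symbols, kept as separate rows. The scripts were tested on simulated data. Alternatives were scaling by upper quartile, limma on quantile-normalized values, DESeq2 1.42.0, no count filter, a minimum of 10 counts per library, a fit restricted to the libraries of 1 comparison, the replicate number as a block, and leaving out each library. Members and gene lists were chosen with earlier results of these data known. Per-library values are given for members that passed in any comparison and for H2-K1, B2m, Irf1 and Stat2, and any other gene was singled out after its values were seen. Gene positions are from GENCODE M21 and promoters from RefSeq, GRCm38.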

Additional observations from a re-analysis of the deposited data

How the results depend on the processing

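The number of members past the threshold was 5 after TGF-β1 in NC cells, 5 in siPdcd5 cells, 3 after knockdown without TGF-β1, 0 with it and 0 for the interaction. With DESeq2's Wald test the counts in siPdcd5 cells, after knockdown without TGF-β1 and after knockdown with TGF-β1 were 8, 5 and 1, beside 19.1%, 5.75% and 3.69% of all genes, and the cause was not tested. The median log2 fold change of the members in siPdcd5 cells ranged from 0.02 to 0.11 over the alternatives. Leaving out 1 library at a time gave 4 to 11, 3 to 10, 1 to 5, 0 to 1 and 0 to 0 members in the order above. In the same fits the share of all genes called was 11% to 20.2%, 10.9% to 21.9% and 1.32% to 5.28% for the first 3. For knockdown with TGF-β1 it was 0.579% to 2.55%, and for the interaction 0% to 0.0158%. The highest counts came without NC + TGF-β1 replicate 2, which gave 11, 10, 5 and 1. The count in siPdcd5 cells was 3 without siPdcd5 replicate 3, and that after knockdown without TGF-β1 was 1 without NC replicate 2, NC replicate 3, siPdcd5 replicate 2 or siPdcd5 replicate 3. Where a group kept 2 libraries the pooled spread of all groups was used. The 13 called values of single members were recomputed in 246 alternatives, of which 0 changed sign and 26 missed the threshold. DESeq2 gave no adjusted p for 3 member tests. The interaction has no version on only the libraries compared, as it uses all 12. With the replicate number as a block the counts were 4, 5, 2, 0 and 0, beside 13.6%, 13.9%, 2.42%, 0.861% and 0% of all genes. In that fit Isg15 in NC cells (log2 fold change 0.58, edgeR adjusted p = 0.0638) and Gbp3 after knockdown (−0.72, edgeR adjusted p = 0.0725) were not called. Libraries with the same number deviated together with correlations of −0.32 to 0.17 across genes, so the numbers were not taken as a pairing. Low counts limit Rsad2, Mx1 and Oas1a.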
